A study of Drosophila melanogaster and Drosophila ananassae and Drosophila pseudoobscura with 52 samples.

Results

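Editing levels of D. pseudoobscura (D.pse) and D. virilis (D.vir) were compared site by site. A site entered the comparison where both species had a level in the same sex, and 244 of the 2380 sites of the series met this rule. Of these, 215 were shared in males, 155 in females and 126 in both sexes. For scale, D.mel shared 321 sites with D.pse and 289 with D.vir by the same rule. The samples were whole bodies of 5 day old adults, males and females apart, of UCSD stock 14011-0121.94 for D.pse and UCSD stock 15010-1051.09 for D.vir. The context came from adults of the same age of UCSD stocks 14021-0231.69 (D.mel), 14021-0251.011 (D.sim), 14021-0261.01 (D.yak) and 14024-0371.13 (D.ana). Each species and sex had 2 libraries of microfluidic multiplex PCR and sequencing (mmPCR-seq), in which cDNA is amplified at many chosen loci at the same time, and D.ana, D.pse and D.vir had 2 further libraries of targeted sequencing. Replicate spread came from adult males of the same age of 8 inbred D.mel strains. These were DGRP lines 26, 325, 352, 441, 721, 774, 786 and 804. No allele, transgene or treatment was involved. The tables give 1 level for each species and sex, so no level carries an error of its own and the read depth is unknown. In the species comparison each species was 1 stock, and a difference between species cannot be told apart from a difference between these stocks. A level of a whole body averages over tissues, so a different share of a tissue and different editing within a tissue cannot be told apart either.

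A-to-I RNA editing is the deamination of adenosine to inosine in double-stranded RNA by ADAR enzymes. Inosine is read as guanosine by ribosomes and by reverse transcriptase, so an edited site appears as a G where the genome has an A, and the editing level is the share of reads with the G. Flies have a single Adar gene, whose product acts mostly in the nervous system, and many known fly sites recode ion channels and proteins of synaptic transmission. The edited adenosine usually lies in a stem formed with a nearby complementary stretch, and neighbouring adenosines of a stem are often edited together at different levels. D.vir branched off before the other 5 species of the set split from each other, and D.pse branched off before D.mel, D.sim, D.yak and D.ana did. The sites are exonic. Positions are those of D.mel in the dm3 build, and the gene of a site was not looked up.

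Each distant species was amplified with primers of its own in the targeted round, and the primers of 4 loci with large differences are given so that the amplified stretch can be found in each genome. Positions are in dm3, all primers are written 5′ to 3′, and capitals mark the longest run of at least 8 bases shared with the D.mel primer of the same direction, where there is such a run. At 3L position 2941364, a site near 0 in D.pse, the D.pse primers shared no such run with those of D.mel.
D.mel 3L 2941364 forward: gggcgggtattacaatgaca
D.mel 3L 2941364 reverse: acttggcgaaggcatcttt
D.pse 3L 2941364 forward: gccttctggtacaccatagtc
D.pse 3L 2941364 reverse: tcttgttgacaaacgcagctc
At 3R position 16857660, also near 0 in D.pse, primers were designed in both species.
D.mel 3R 16857660 forward: cgagtccgtcatattcgacaa
D.mel 3R 16857660 reverse: taagcgcgctagagattgtt
D.pse 3R 16857660 forward: cagccgcaaatttactgtcac
D.pse 3R 16857660 reverse: caatcagcagggcatatcct
D.vir 3R 16857660 forward: tcgaagaaattgacgaatctgt
D.vir 3R 16857660 reverse: tatgcgattgattctgcacac
At 2L position 7230012, a site near 0 in D.vir, the forward primer of D.vir shared a run of 13 bases with that of D.mel.
D.mel 2L 7230012 forward: gcatgggctatggcttctttt
D.mel 2L 7230012 reverse: gtagcagacgagggcact
D.vir 2L 7230012 forward: gcatgggtTATGGCTTCTTTT
D.vir 2L 7230012 reverse: gataagggtggcaaagttctc
At 3R position 191196, where D.vir males were lower than D.pse males and not near 0, the forward primers shared runs of 14 bases in D.pse and 8 in D.vir with the forward primer of D.mel.
D.mel 3R 191196 forward: cgctataggctcgaatgtctt
D.mel 3R 191196 reverse: gaccataagaattatgccgagtc
D.pse 3R 191196 forward: gattGGCTCGAATGTCTTtga
D.pse 3R 191196 reverse: aattatacccaggcgcttgtc
D.vir 3R 191196 forward: gcgattggctcaAATGTCTTt
D.vir 3R 191196 reverse: ccccaaatatgtgctctgatc

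Most shared sites had low levels in both species and similar ones, and a minority differed widely in either direction. In males the median level was 0.9% in D.pse and 0.6% in D.vir, and in females it was 0.7% and 0.6%. The difference D.vir minus D.pse had a median of -0.15 percentage points in males, with quartiles of -2.25 and 0.3, and of -0.10 in females, with quartiles of -1.55 and 0.3. In males 83 sites were higher in D.vir, 125 were lower and 7 were equal. In females these counts were 60, 86 and 9. The levels differed by at most 1 percentage point at 98 male sites and 77 female sites. A limit of 10 percentage points, the largest difference between biological replicates that the study accepted, was used to count larger differences. In males 21 of 215 sites (9.77%) were higher in D.vir by at least 10 points and 32 (14.9%) were lower. In females 10 of 155 sites (6.45%) were higher and 13 (8.39%) were lower. The lowest and highest differences were -49.85 and 57.25 points in males and -62.95 and 93.85 points in females. A level of exactly 0 was listed for 14 male and 9 female values of D.pse and for 27 and 11 of D.vir. By the study's methods a position that was not an A in the DNA was given a level of 0%, so an exact 0 can stand for an absent adenosine.

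**Figure D1:**
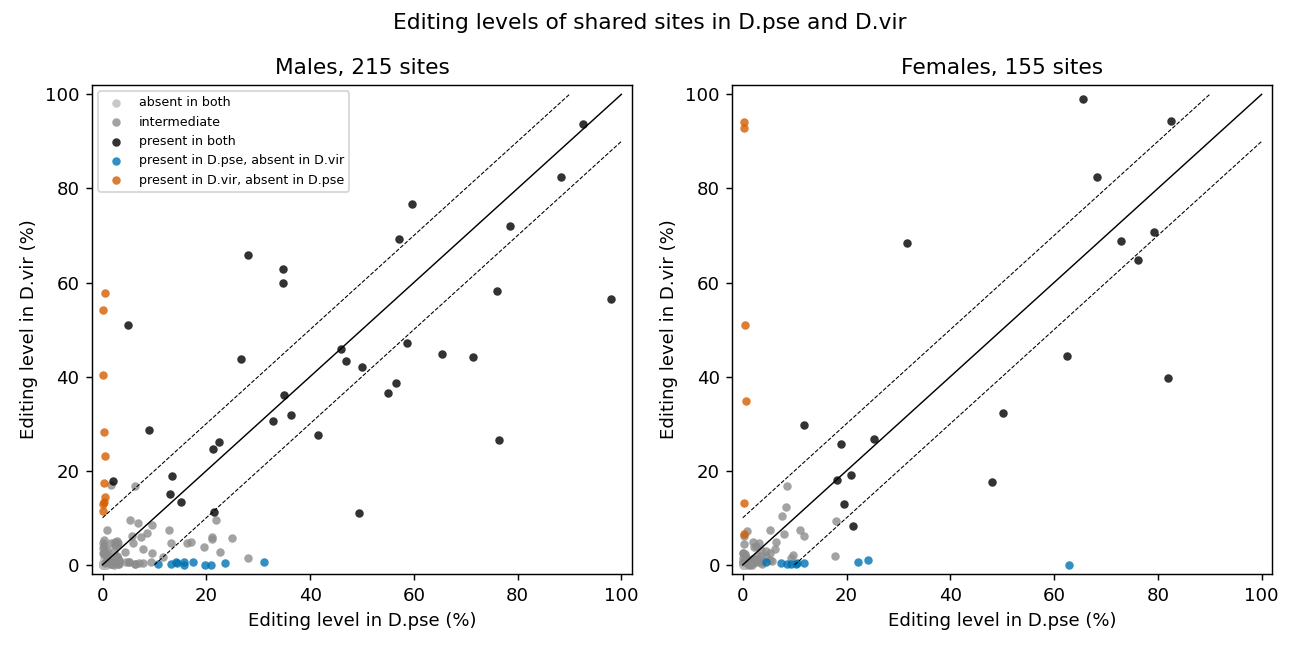
Editing level in D.pse (x axis, percent) against D.vir (y axis, percent) at the 215 sites shared in males and the 155 shared in females, 1 point per site, with colours for the presence classes defined in the text and dashed lines at differences of 10 percentage points. Most points lie near the origin. Orange and blue points along the axes are sites at 10% or more in at least 1 sex of one species. The other species was at 1.5% or less there in every measured sex. Such a point can lie under 10% in the panel of 1 sex.

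Replicate spread could only be seen in the table of 8 inbred D.mel strains (DGRP lines), which holds 2 single male libraries per line. At 162 to 176 of the same 244 sites, the 2 libraries of a line differed by a median of 1 to 2.5 percentage points. They differed by at least 10 points at 0.568% to 14.2% of the sites, with a median of 3.52% over the lines. The highest share belonged to line 774 and the next was 5.14%. The column names of line 721 (1.73%) number its libraries differently from those of the other lines, so its pair may be repeat runs of 1 sample, and the median without it was 4.12%. The median absolute species difference was 1.4 points in males and 1.05 in females, within the range of the medians of the lines. A typical site thus differed no more between the species than between replicate libraries, and the contrast lay in the large differences. The species difference reached 10 points at 24.7% of the male sites, above the share of every line. It did so at 14.8% of the female sites, about the share of line 774 and above those of the other 7 lines. The comparison is a description. The library values are from another species and from 1 library each. The values of the species stand for several libraries in a way not given in the sources used here. In its divergence analyses the study left out mmPCR-seq sites whose replicates were more than 10 points apart. Whether the species values used here were filtered so is not given, and the DGRP values were not. Within D.pse the sexes differed by at least 10 points at 15 of 198 members with a level in both sexes, and within D.vir at 4 of 157.

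**Figure D2:**
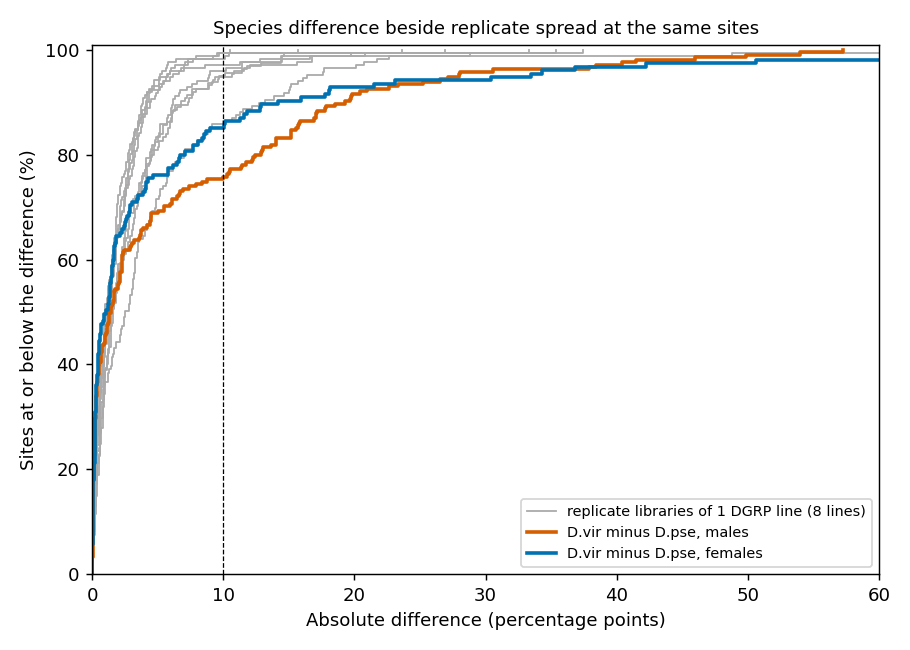
Share of sites (y axis, percent) at or below an absolute difference in editing level (x axis, percentage points, drawn up to 60), for D.vir minus D.pse in males and in females and for the 2 replicate libraries of each of 8 DGRP lines at the same sites. The dashed line marks 10 points, which 24.7% of male sites and 14.8% of female sites reached, against 0.568% to 14.2% in the lines.

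Large differences mostly had the same direction in the sexes. Over the 126 sites shared in both sexes, the differences in males and in females had a Spearman's rho of 0.70 and a Pearson's r of 0.88 across sites, given as a description because sites are not independent and the same stocks were used. At 4 of these sites (3.17%) D.vir was higher by at least 10 points in each sex, and at 7 (5.56%) it was lower by at least 10 points in each. No site passed the limit in opposite directions. A further 13 sites passed it in males only and 0 in females only, of which 10 had the same sign in both sexes and 3 had opposite signs. The 11 sites past the limit in both sexes are described here in turn.

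**Figure D3:**
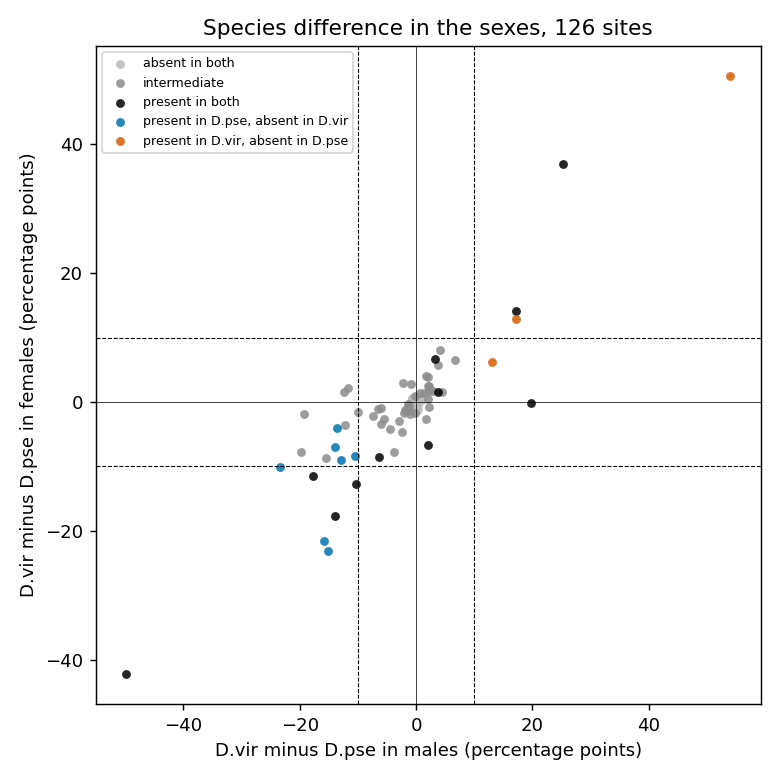
Difference D.vir minus D.pse in males (x axis, percentage points) and in females (y axis, percentage points) at the 126 sites shared in both sexes, 1 point per site, with dashed lines at 10 points. The 4 points in the upper right corner and the 7 in the lower left corner are past the limit in both sexes, and the corners of opposite direction are empty.

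Among the sites higher in D.vir, 3R position 16857660 had the widest gap in both sexes together. Its level was 0.15% in males and 0.35% in females of D.pse, and 54.15% and 50.95% in D.vir. The other species with a level there, D.mel, D.sim and D.yak, stood between 52.00% and 59.30%, so D.pse was apart from all of them. The next was 3L position 4369422, at 34.70% and 31.60% in males and females of D.pse and at 59.90% and 68.45% in D.vir. Here D.vir lay above every other species, which ranged from 19.80% in D.yak females to 42.00% in D.ana females. At X position 14893901 the levels were 59.60% and 68.30% in D.pse and 76.70% and 82.45% in D.vir. The other 4 species had 77.65% to 91.25%, and both D.pse values lay below all others. At 2R position 9781368 the levels were 0.30% and 0.20% in D.pse and 17.45% and 13.05% in D.vir. No value of the other 4 species exceeded 0.30%, so D.vir alone was edited there.

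Of the 7 sites lower in D.vir, 3 belonged to a stretch of 65 bp on 2R. At position 4771211 D.pse had 76.45% in males and 82.00% in females and D.vir 26.60% and 39.75%, while the other 4 species had 84.35% to 99.75%. At position 4771250 D.pse had 15.75% and 24.10% and D.vir 0.60% and 1.00%, with 39.00% to 75.65% in the others. At position 4771195 D.pse had 15.75% and 22.20% and D.vir 0.00% and 0.70%. D.vir was the lowest of the measured species at all 3 positions. At 2L position 7230012 D.pse had 23.60% in males and 10.25% in females and D.vir 0.30% and 0.20%. The other 4 species had 15.50% to 24.60% in males and 5.70% to 7.65% in females. Males were thus above females in D.pse and in each of these 4, while both D.vir values were near 0. The last 3 were on X. Position 11833797 had 41.60% and 50.10% in D.pse and 27.60% and 32.35% in D.vir, and position 11833731 in the same locus had 76.00% and 76.25% against 58.25% and 64.70%. Position 14893953 had 21.55% and 21.15% in D.pse and 11.30% and 8.35% in D.vir.

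The species difference at single sites was tested with limma on log2((level + 0.01)/(1 - level + 0.01)), with species and sex as terms and all 6 species in the fit. The sexes stand in for replicates in this test, so its p-values measure how far the species differences disagree between the sexes and not the spread between flies. Of 60 sites with all 4 levels and a mean of at least 1%, 12 (20%) were higher in D.vir and 26 (43.3%) lower at a limma adjusted p under 0.05, and 40 had an unadjusted p under 0.05. Without the filter on the mean, limma called 10 higher and 22 lower of 126 sites. The median difference over all 60 sites was -0.69 on this scale. The 11 sites past 10 points in both sexes were among the calls, which their choice favours, since the test used the same values. In limma the log2 difference was 6.48 ± 0.315 (SE) at 3R position 16857660 (adjusted p = 4.25e-06), 3.92 ± 0.276 at 2R position 9781368 (adjusted p = 4.25e-06), and -4.21 ± 0.329 at 2R position 4771195 (adjusted p = 1.53e-05). Of these 11 sites, 3 on X had the highest adjusted p in limma. With limma, X position 14893901 had an adjusted p of 0.0447, which ranged from 0.0106 to 0.119 under the alternatives, X position 11833797 had 0.0422 (0.0310 to 0.0918) and X position 11833731 had 0.0349 (0.0236 to 0.0735). The number of calls depended on the scale, and on untransformed levels limma called 5 sites higher and 10 lower.

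Among the 38 called sites, 17 differed by less than 10 points in both sexes. Most of them were sites of a few percent in one species and near 0 in the other. At 3L position 4369460 D.pse had 0.80% in each sex and D.vir 7.50% and 7.25% (limma adjusted p = 2.24e-04). At 3L position 4369455, 5 bp away, D.pse had 0.15% and 0.10% and D.vir 2.45% and 2.55%, while the other 4 species had 4.60% to 9.30% (limma adjusted p = 4.63e-04). At 3R position 7217270 the order was the other way, with 3.25% and 3.65% in D.pse and 0.25% and 0.65% in D.vir (limma adjusted p = 9.01e-04). These sites lie outside the rule for naming sites and were chosen after their values were seen.

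Sites were next put into classes by presence, at 10% or more in at least 1 sex, and absence, at 1.5% or less in every measured sex. Of the 244 sites, 41 were present in both species, 97 were absent in both, 13 were present in D.vir and absent in D.pse, 14 were present in D.pse and absent in D.vir, and 79 were intermediate. The Presence/Absence sites were thus split about evenly between the directions, and they are the sites whose values lie on an axis of the plot of D.pse against D.vir. Of the 79 intermediate sites, 36 were edited at 2% or more in both species, 15 were edited in D.pse and unedited in D.vir, and 12 were unedited in D.pse and edited in D.vir. The other 16 had a value between 1.5% and 2% in one of the species.

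The 13 sites present in D.vir and absent in D.pse came from 8 loci, and 8 of the sites lay in 2 stretches, on 3L and 3R. Their highest D.vir level ran from 11.4% to 94.15%, with a median of 28.15%, and D.pse was at 0.55% or less at every one. At 2 of them D.pse was listed at exactly 0 in all measured sexes, and at the other 11 it was above 0 in at least 1 sex. The 2 highest were shared in females only. At 3L position 2941426 D.pse females had 0.30% and D.vir females 94.15%, and at 3L position 2941364 they had 0.25% and 92.85%. In males D.pse was again near 0, at 0.15% and 0.10%, and D.vir had no level. In the third, 3L position 2941312, D.pse males had 0.55% and D.vir males 57.80%. The other 4 species were edited at all 3, with 75% to 91.10% at the first, 64.80% to 87.80% at the second and 32.85% to 78.85% at the third. At 3R position 14733532 the pattern was different. D.vir had 41.75% in males and 34.85% in females, D.pse females had 0.55%, and no value of the other 4 species exceeded 0.45%.

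By the state of the other species, 10 of these 13 sites were edited at 2% or more in at least 1 of D.mel, D.sim, D.yak and D.ana. At 9 of the 10, every other species with a defined state was edited, the pattern for which 1 loss on the D.pse branch needs the fewest changes. The exception was 2R position 20797983, which lies outside the rule for naming sites, where D.sim had 18.55% in males and D.mel and D.yak at most 0.65%, and 1 loss in D.pse alone does not give that pattern. The other 3 sites, 3R position 14733532 and 2R positions 9781348 and 9781368, were edited in D.vir alone, with 2 or more other species unedited, and a gain in D.vir cannot be told apart from a loss before the other 5 species split. Editing in at least 1 of D.mel, D.sim, D.yak and D.ana was common in every class. It was found at 69 of the 97 sites absent in both, 69 of the 79 intermediate sites and all 41 present in both. By the study's methods, primers were designed for sites edited in adult D.mel, and these counts carry that choice.

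The 14 sites present in D.pse and absent in D.vir were more scattered, over 12 loci, and had lower levels. Their highest D.pse level ran from 10.5% to 62.95%, with a median of 18.6%, and D.vir was at 1.0% or less at every one. The largest was 2R position 20798346, where D.pse had 57.35% in males and 62.95% in females and D.vir females were listed at exactly 0. D.mel, D.sim and D.yak had 28.75% to 54.75% there. At 3R position 23500629 D.pse males had 31.15% and D.vir 0.55% in males and 0.85% in females, and D.ana, the only other species with a level, had 60.15% and 53.70%. The remaining 3 named by the rule, 2R positions 4771250 and 4771195 and 2L position 7230012, have been described. D.vir was listed at 0 in all measured sexes at 1 of the 14 sites. All 14 were edited in at least 1 of the other 4 species, and at 12 every other species with a defined state was edited. The 2 exceptions were unedited in D.ana. Since D.vir is the outgroup of the other 5 species, a loss on the D.vir branch and a gain before the other 5 split cannot be told apart at these 14 sites. Neither event alone gives the pattern of the 2 exceptions. No site was present in D.pse alone, that is, absent in D.vir with at least 2 other species unedited and none edited. Loci were chosen by editing in D.mel, which disfavours such sites, so their lack here says little about how often they occur.

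**Figure D4:**
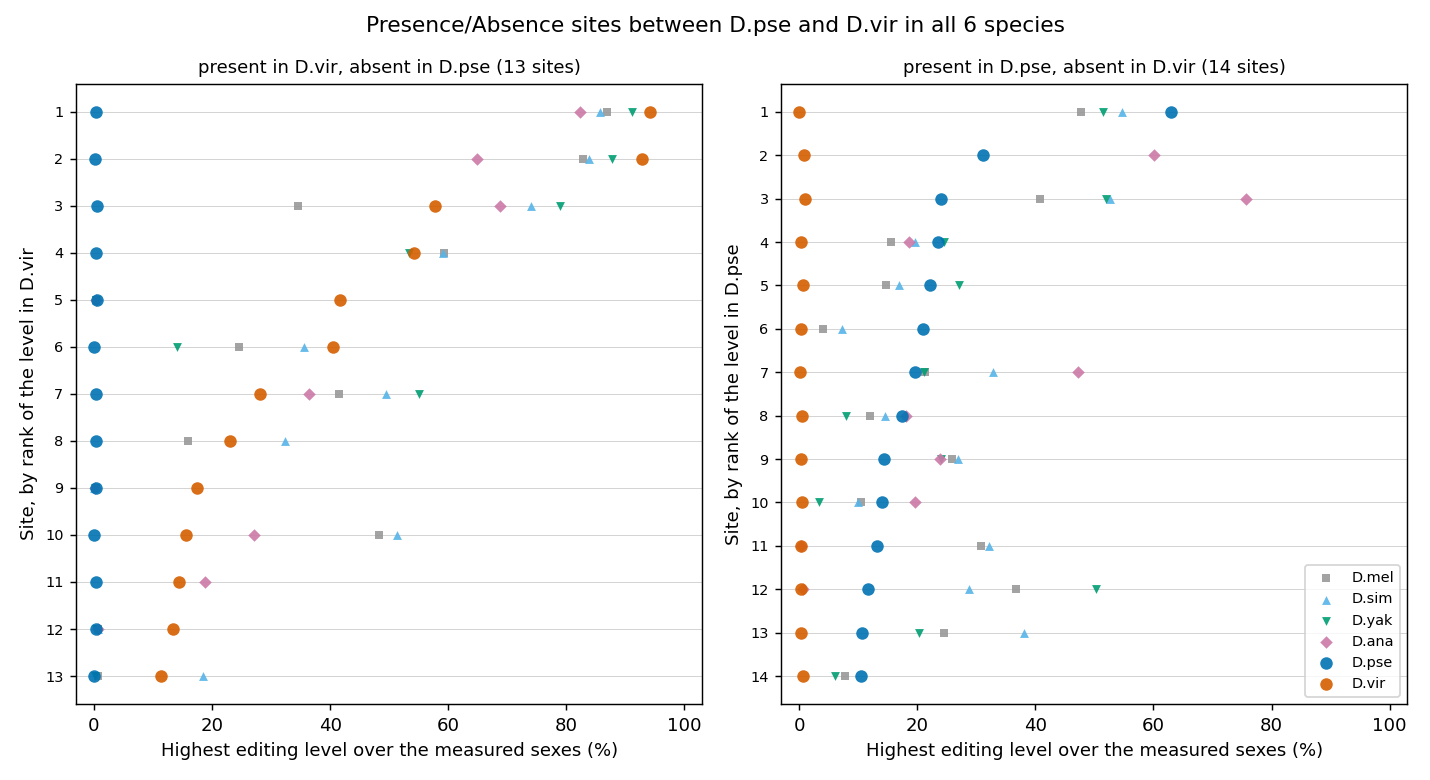
Highest editing level over the measured sexes (x axis, percent) in each of 6 species at the 13 sites present in D.vir and absent in D.pse (left) and the 14 present in D.pse and absent in D.vir (right), 1 row per site ordered by the level in the species where it is present. The other 4 species mostly lie with the edited species in both panels, with at least 1 of them edited at 10 sites on the left and at all 14 on the right.

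Many sites edited in the other species were absent in both D.pse and D.vir. Of the 97 sites absent in both D.pse and D.vir, 69 were edited in at least 1 of the other 4 species and 38 reached 10% in at least 1. The counts include sites near 100% in 1 species and near 0 in the others, named here after their values were seen. At 2L position 8224296 D.mel had 99.90% in each sex, and no other species exceeded 0.30%. At 3R position 25682017 D.mel had 99.80% and 99.90%, and no other species exceeded 0.35%. The DNA was not looked up, so a G in the genome cannot be told apart from editing there. D.mel was edited at 60 of the 85 with a level there and D.ana at 19 of 87. Among the sites present in both, by contrast, all 41 were edited in at least 1 of the other species and D.mel at all 41. These counts carry the choice of the loci, most of which were known in D.mel. D.ana was unedited at 4 of the 41 sites that D.pse and D.vir shared at 10% or more. At 2L position 9809297, for example, D.pse males had 34.85% and D.vir males 62.90%, D.mel, D.sim and D.yak had 71.60% to 84.30%, and D.ana had 0.00% and 0.05%. This site was chosen after its values were seen.

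At the 41 sites present in both species the difference was often large. Averaged over the measured sexes, D.vir was higher at 17 of them, lower at 23 and equal at 1, with a median difference of -2.25 points and a median absolute difference of 12.2 points. The mean difference passed 10 points upwards at 11 and downwards at 13. Among the sites with levels of both species in both sexes, the 5 with the highest lowest level included X position 14893957, which was the most alike of the 5, with 78.55% and 79.30% in D.pse and 72.10% and 70.75% in D.vir (limma adjusted p = 0.216, 0.127 to 0.390 under the alternatives). The other 4 were X positions 14893901, 11833731 and 11833797 and 3L position 4369422, all past 10 points in both sexes. Highly edited sites with close levels were also found among those shared in 1 sex, named after their values were seen. In males 3R position 20532273 had 92.70% in D.pse and 93.75% in D.vir, and X position 16358752 had 88.40% and 82.45%. X position 14894656 had 45.95% in males of both species.

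Several of the largest differences were seen in 1 sex only, because a level was missing in the other. In males 3R position 5484913 had 4.90% in D.pse and 50.90% in D.vir. D.pse females had 20.40% there, so D.pse itself differed between the sexes by more than 10 points. In males 2R position 9697052 had 98.00% in D.pse and 56.55% in D.vir, against 54.95% to 78.70% in the males of the other 4 species. In males 3R position 191196 had 49.50% in D.pse and 11.05% in D.vir, and D.pse females had 60.40%. Here D.mel had 54.60% and 50.70%, while D.yak and D.ana had at most 1.00%. In females 2R position 20798337 had 47.95% in D.pse and 17.50% in D.vir.

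Sites of a locus did not all move together. Sites within 350 bp of the next were counted as a locus, since they can share an amplicon, and the 244 sites fell into 129 loci, of which 54 held more than 1 site. In 11 of these at least 2 sites had a mean difference past 10 points. All such sites were higher in D.vir in 3 of the 11 loci and lower in 4, and 4 loci held both directions. In the 114 bp on 3L that start at position 2941312, D.pse was at 0.55% or less at all 6 shared sites. D.vir reached 28.15% or more at 4 of them and at most 3.65% at the other 2. D.pse was likewise at 0.60% or less at all 6 shared sites of a region of 3R from position 16857611 to 16861713. There D.vir had 12.85% and 15.65% at position 16859660, 14.45% in males at 16859821 and 23.05% in males at 16861713. These positions lie outside the rule for naming sites, except 16857660.

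The locus on X that starts at position 14893901 held both directions within 70 bp. D.vir was higher at the first site and lower at positions 14893953 and 14893971, the last with 21.10% and 17.90% in D.pse and 5.55% and 9.25% in D.vir (limma adjusted p = 0.00437). The narrowest case was a pair of neighbouring bases on X, chosen after its values were seen. In females D.pse had 11.70% at position 14896297 and 62.40% at 14896298, and D.vir had 29.80% and 44.35%, so the difference D.vir minus D.pse was 18.10 points at the first base and -18.05 at the second. In the 38 bp on 3L that start at position 4369422, 5 of the 6 sites had a mean difference under 10 points beside 31.03 points at the first. At position 4369459 in this stretch D.pse had 21.35% and 19.00% and D.vir 24.55% and 25.70%, all above the 2.45% to 11.35% of the other 4 species.

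**Figure D5:**
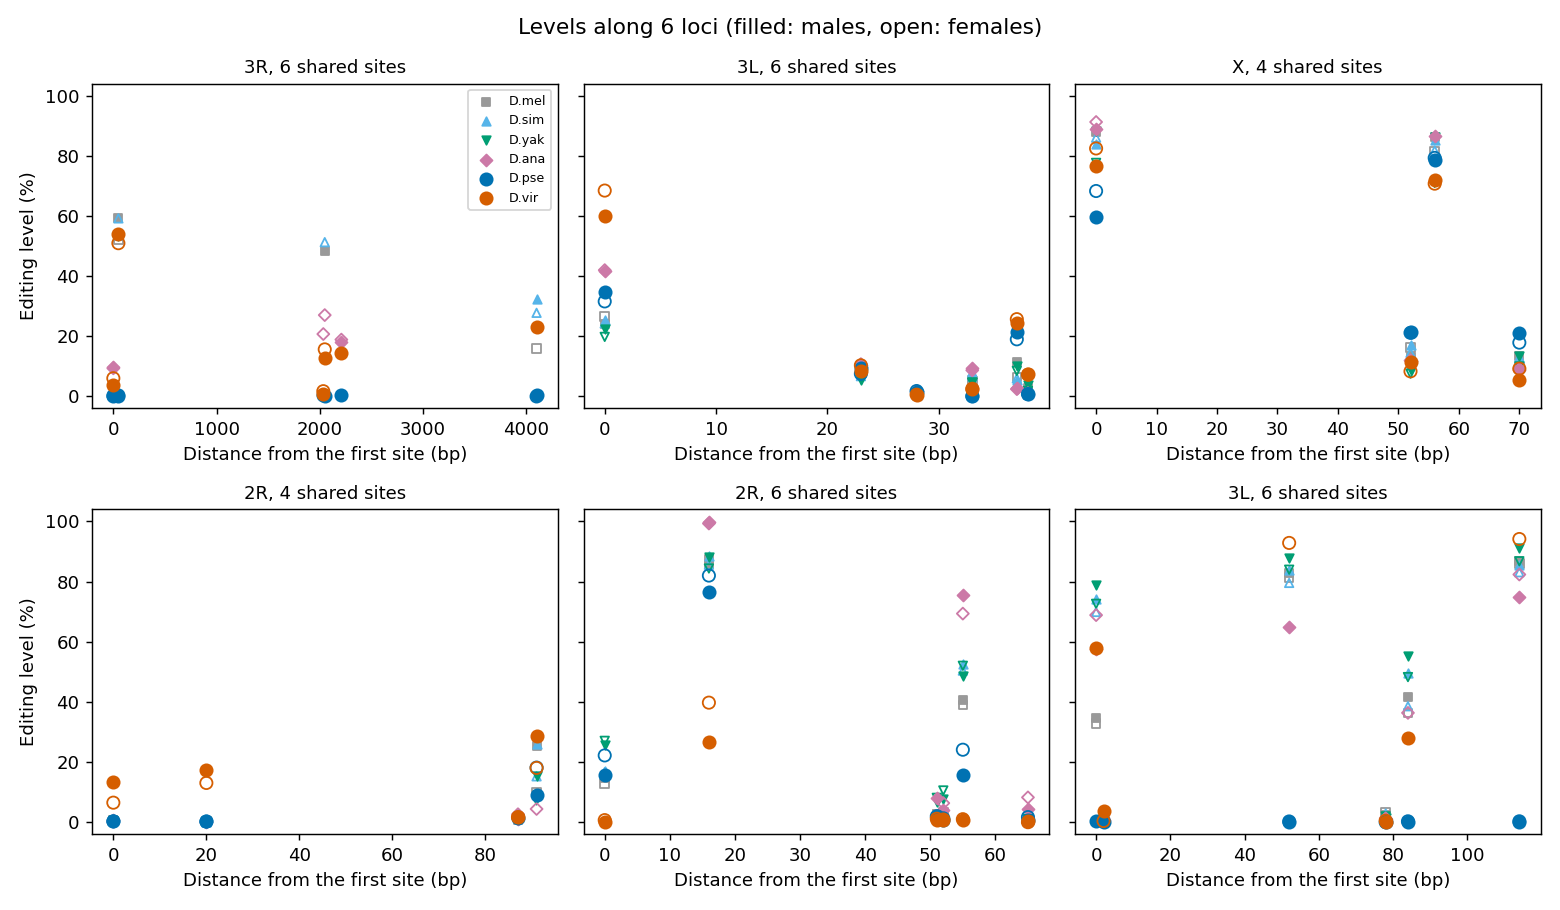
Editing level (y axis, percent) against the distance from the first shared site (x axis, base pairs) along 6 stretches. Each species and sex has 1 point per site, filled for males and open for females, with D.pse in blue and D.vir in orange. The 3R stretch is a region of more than 1 locus, and each of the others is 1 locus. D.pse lies at the bottom throughout the 3R panel and the lower 3L panel, D.vir is lowest at the 3 most edited sites of the 2R panel with 6 sites, and the X panel holds sites of both directions.

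Across all shared sites the ranks of the levels had a Spearman's rho of 0.581 between D.pse and D.vir in males and 0.533 in females, as a description across sites. Over the members that also had a level in another of the species, rho with that species in males was 0.426 to 0.588 for D.pse and 0.372 to 0.530 for D.vir. In females it was 0.333 to 0.480 for D.pse and 0.273 to 0.497 for D.vir. Ranks of D.pse and D.vir over the same subsets had a rho of 0.555 to 0.683 in males and 0.495 to 0.600 in females. Of the sites past 10 points with at least 3 other species in that sex, the median of the others was closer to D.vir at 9 of 16 male sites that were higher in D.vir and closer to D.pse at 7. It was closer to D.pse at 15 of 24 male sites that were lower in D.vir. In females it was closer to D.pse at 5 of 8 sites higher in D.vir and at 4 of 8 lower.

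Sites past 10 points were found on every arm except the fourth chromosome, which held 1 member. In males they made up 34.1% of 41 sites on X, 25% of 20 on 3L, 23.0% of 74 on 2R, 22.9% of 48 on 3R and 19.4% of 31 on 2L. Of the 13 sites present in D.vir and absent in D.pse, 4 were on 3L and 5 on 3R, and 0 on X. These arms held 26, 55 and 48 of the 244 sites. All 4 on 3L lay in the locus that starts at position 2941312, and most of the 5 on 3R in the region that starts at position 16857611. The counts per arm are thus not counts of independent sites. The arms are those of D.mel and need not be those of D.pse or D.vir. At 3L positions 2941312 and 2941364 the D.pse primers were listed on the contig chrXR_group8. Primers of both species had been designed within 250 bp of 145 of the 244 sites, of D.vir alone at 35, of D.pse alone at 10 and of neither at 54. Of the 97 sites absent in both, 78 were among the 145 and 5 among the 54. Of the 41 present in both, 11 were among the 145 and 23 among the 54. The share of male sites past 10 points was 19.5% with primers of both and 30% with neither. By the study's methods all species were first amplified with D.mel primers. Primers of D.pse and D.vir were added for loci where this had failed in the distant species. The groups therefore differ in their loci as well as in their primers. The part of the primers in these results was not tested.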

How the data were processed

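Whole-body RNA of all species was amplified by mmPCR-seq, and targeted sequencing was added for the 3 species farthest from D.mel. Per the study's methods, reads were split by barcode (FASTX Toolkit) and mapped with TopHat, and sites under a minimum read count were dropped. The submitters' processing notes name dm3. What the authors deposited is the fraction of reads edited at each site, 1 value per species and sex. How replicates and rounds were combined, and whether the study's RNA-seq entered the values, is not given in the sources used here. Read counts were not used here, so no interval or depth was computed, and 0 columns of single samples were left unassigned.

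Levels were converted to percent, and D.pse was subtracted from D.vir within each sex. The 12 columns of the 6 species entered limma 3.58.1 (R 4.3.3), two-sided, with an offset of 0.01, a mean of at least 1% and Benjamini-Hochberg adjustment over 60 sites. On simulated data for these 60 sites it found 16 of 20 shifts of 1.5 log2 units with 0 false calls, and 18 of 20 shifts of 3 units with 1. The simulation drew independent noise of the same size in every column around the mean of each site. It had no sex effect, no other difference between species and no error shared by the sexes of a stock. Its false calls therefore do not give the rate of false calls in the real data. Counts, medians and rho have no test. In the DGRP table, 16 positions written with NA in place of 200 were restored. Other steps used Python 3.11.15, pandas 2.3.3 and scipy 1.17.1.

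The members and lists were chosen with earlier results of these data known. Sites named were those past 10 percentage points in the same direction in both sexes, at most 10 each way, the 2 largest each way among sites shared in 1 sex only, the 5 Presence/Absence sites each way with the highest level, and, among sites with all 4 levels, the 5 with the highest lowest level. Gene lists had been planned as well. They were not used here, because the reference tables are of another genome release than dm3. Primer sequences came from the study's supplementary table. Alternatives changed the limits, the scale, the offset, the filters and the species in the fit.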

Additional observations from a re-analysis of the deposited data

Results flagged for a closer look

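At 3 sites shared in both sexes the difference D.vir minus D.pse passed 10 percentage points in males and had the opposite sign in females. It was 19.7 points in males and -0.1 in females at 2R position 9781439, where D.pse had 8.90% in males and 18.15% in females and D.vir 28.60% and 18.05%. It was -12.4 and 1.55 points at X position 10640521. It was -11.75 and 2.1 points at 3L position 16104689. With 1 value per species and sex, these differences between the sexes were not tested. The last 2 sites were named only because of this pattern.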

How the results depend on the processing

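No paired analysis was possible because the columns of the species carry no replicate numbers, and for the same reason no replicate could be left out. In limma, 5 sites were higher in D.vir and 10 lower on untransformed levels, 5 and 14 with a mean of at least 5%, and 17 were lower with the 4 columns of D.pse and D.vir alone. Fewer sites are tested under the higher mean. For the other changes the cause was not tested. Over 12 named sites and 131 alternative fits, 14 fits at 3 sites on X lost the call. The alternatives could not change a direction at these sites. At a limit of 20 points, 9 male sites were higher and 9 lower, 6 female sites were higher and 5 lower, and 2 were higher and 1 lower in both sexes. At 5 points, 22 female sites were lower, and 13 were lower in both sexes. Over sites shared in both sexes, 6 male sites were higher and 18 lower, and 4 female sites were higher and 7 lower. The median difference was -1.7 points in males and -1.65 in females over sites at 2% or more in at least 1 species, and -0.1 and -0.05 over sites shared in both sexes. The rank correlation of D.pse with D.vir was 0.743 in males and 0.882 in females over sites at 2% or more in both species, 0.363 and 0.280 with 2% or more in at least 1, and Pearson's r was 0.784 and 0.700. With presence at 20% or more, 8 sites were present in D.vir only and 6 in D.pse only. With presence at 5% or more, 22 were present in D.pse only. In females alone the counts were 5 and 6. The counts of gain and loss patterns did not move with D.mel left out or with other species edited at 5% or more. The read depth behind single levels is unknown, so a low level cannot be told apart from sequencing error by these values.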
